A study of Mus musculus with 2 samples.

Results

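The 10 genes of the segmentation clock and of somite formation studied here, Hes7, Lfng, Dll1, Dll3, Notch1, Mesp2, Tcf15, Meox1, Uncx and Pax1, were measured in mouse embryos that carried both copies of chromosome 18 from a single parent. The members were all probe sets of the Affymetrix mouse 430 array whose platform annotation named exactly 1 gene symbol, that symbol being one of these genes under its listed or current name. This gave 13 probe sets for the 10 genes, out of 45101 probe sets and 18193 named genes on the array. A single array held RNA from whole embryos at 8.5 days post coitum (dpc) with maternal uniparental disomy of the whole of chromosome 18 (matUPD18), and a single array held RNA from embryos of the same age with the paternal disomy (patUPD18). Both kinds of embryo therefore lack one parental contribution to chromosome 18, and no array of embryos with a copy from each parent was analysed here. The study compared the genotypes to find transcripts that differ strongly between them. The strain background, the number of embryos behind each RNA and their somite numbers are not stated in the labels. None of the 10 genes lies on chromosome 18; they sit on chromosomes 2, 5, 7, 11 and 17.

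Somites are blocks of paraxial mesoderm that bud off in sequence from the presomitic mesoderm at the tail end of the embryo and later form vertebrae, ribs, skeletal muscle and dermis. The timing of budding is set by a clock, in which transcription of Notch, Wnt and FGF target genes rises and falls once per somite. Hes7, a basic helix-loop-helix repressor that shuts off its own gene, is at its core, and Lfng, a glycosyltransferase that modifies Notch receptors, cycles with it. Loss of Hes7, Lfng, Dll3 or Mesp2 disrupts vertebral segmentation in mice.

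The annotated promoters of these genes were searched for short motifs. Windows were taken from RefSeq (GRCm38.p6) for 8 of the 10 genes (9 windows, since Dll1 has a pair of annotated starts); Tcf15 and Meox1 had no entry. The 250 bases before the start are printed for Hes7 and Dll1, the genes with the largest differences in either direction below, and for Lfng, because Hes and Notch factors are known to control it. Capitals mark matches, on either strand, to the letters CACGTG (an E-box), CACNAG (an N-box, a class of site bound by Hes repressors), TGGGAA (the core bound by RBPJ, the DNA-binding partner of Notch) and GGTGTG (part of a T-box site). The Hes7 window is chr11:69120203-69120452 on the plus strand, the Lfng window is chr5:140607091-140607340 on the plus strand, and the Dll1 window, before its outermost start, is chr17:15376933-15377182 on the minus strand.
Hes7: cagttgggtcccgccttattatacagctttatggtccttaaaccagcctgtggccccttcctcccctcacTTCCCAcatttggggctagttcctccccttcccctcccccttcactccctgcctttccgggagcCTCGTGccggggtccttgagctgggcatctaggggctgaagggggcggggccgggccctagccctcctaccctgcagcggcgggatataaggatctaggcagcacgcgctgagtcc
Lfng: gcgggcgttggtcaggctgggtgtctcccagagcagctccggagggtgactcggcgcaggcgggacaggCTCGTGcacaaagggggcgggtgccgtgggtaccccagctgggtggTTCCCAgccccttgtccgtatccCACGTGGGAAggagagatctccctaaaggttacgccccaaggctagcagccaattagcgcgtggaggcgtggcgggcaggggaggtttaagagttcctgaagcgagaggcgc
Dll1: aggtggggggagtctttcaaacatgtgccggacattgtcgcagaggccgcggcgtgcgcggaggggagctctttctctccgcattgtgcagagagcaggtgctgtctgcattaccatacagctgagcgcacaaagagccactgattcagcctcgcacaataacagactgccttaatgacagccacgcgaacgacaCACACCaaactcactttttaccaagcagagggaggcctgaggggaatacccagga

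The Hes7 window held 1 RBPJ match, 180 to 175 bases upstream of the start, and 1 N-box match, 116 to 111 bases upstream. The Lfng window held 1 N-box and 2 RBPJ matches, and its single E-box, 112 to 107 bases upstream, overlapped the second RBPJ match by 2 bases. Both Dll1 windows held a T-box match, 55 to 50 bases before the outermost start and 50 to 45 bases before the inner one, and none of the other letters. Among all 32851 promoter windows of this length, 6.02% held the E-box, 36.7% the N-box, 21.6% the RBPJ core and 16.3% the T-box letters. Of the 9 windows of the segmentation genes, 1, 4, 2 and 3 held them, the last count including both Dll1 windows. Counts this small cannot be set apart from the shares over all windows. The windows of Dll3, Mesp2 and Uncx held no match to these letters. A match describes the sequence and does not show that a factor binds there.

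**Figure D1:**
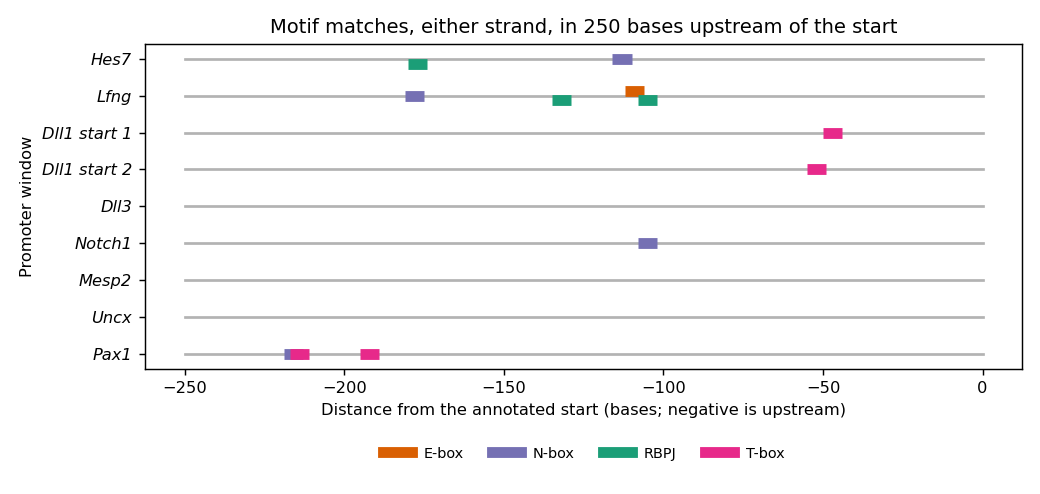
Positions of the motif matches in the 250 bases upstream of each annotated start, in bases from the start, for the 9 windows of 8 segmentation genes; coloured bars are matches on either strand. Hes7 and Lfng are the only windows here with an RBPJ match, and in Lfng one of these overlaps the E-box.

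The values are MAS5 signals, a linear measure of brightness per probe set that the deposited files scale to a common mean on both arrays. Ratios are given as log2 of matUPD18 over patUPD18. Signals below an array's 40th percentile (84.15 in matUPD18 and 82.46 in patUPD18) were raised to that floor, and where both were below it no ratio was read. A gene was called measurable where either signal reached its array's 60th percentile (190.1 and 184.9), and the brightest of its probe sets, by mean signal, stood for it. By this rule 8 of the 10 genes were measurable, 7 of them on both arrays. Hes7 passed through the patUPD18 array alone and so had to read higher there. With 1 array per genotype there was no spread between embryos to set a difference against, no test was possible, and the single arrays limit the precision of every value. A rough scale is the disagreement between measurable probe sets of the same gene, whose log2 ratios had a standard deviation of 0.44 over 4003 genes. This scale leaves out variation between embryos, RNA preparations and arrays, which the probe sets of a gene share. In whole embryos, fewer cells of a type and less RNA per cell cannot be told apart.

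Markers of the paraxial mesoderm could be read in both genotypes. Of 6 paraxial mesoderm markers with a probe set, 4 were measurable. Pax3, a transcription factor of early somites and the dorsal neural tube, was the brightest at 1588 in matUPD18 and 1042 in patUPD18. That probe set gave a log2 ratio of 0.61, and the 2 other measurable Pax3 probe sets gave 0.42 and -0.28. Uncx and Tbx6, a presomitic T-box factor, were not measurable. The summed signal of these markers was 4096 in matUPD18 and 4111 in patUPD18, with 3 markers higher in matUPD18 and 3 in patUPD18. Meox1, Tcf15 and Uncx are among them and are also genes studied here, so the sum is not an independent check on the amount of this tissue. Markers of some other tissues differed more between the arrays. All 14 yolk sac and visceral endoderm markers read higher in matUPD18, 13 of them by at least 2-fold, with summed signals of 36556 and 5370, and Afp the brightest (12720 and 1914). All 12 primitive red cell markers read higher in patUPD18, 6 of them by at least 2-fold, with summed signals of 46912 and 72195, and Hbb-y the brightest (23060 and 30980). Neural tube markers (10 genes, of which 2 were at least 2-fold higher in patUPD18, summed signals 12877 and 15087, Sox2 the brightest at 5833 and 5337) and heart markers (8 genes, all within 2-fold, 40550 and 46647, Myh6 the brightest at 12930 and 12230) had summed signals closer to each other. Of the neural tube markers 6 read higher in matUPD18 and 4 in patUPD18, with a median log2 ratio of 0.13. Their sum includes Hes5, which read 2199 in matUPD18 and 4777 in patUPD18 and is also among the clock-linked targets below. No marker of these tissue lists read 0 on either array. The part of these tissue differences in the values below was not tested.

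The segmentation genes were not shifted as a block. Past a 2-fold difference stood Hes7 alone of the 10, higher in patUPD18, while Dll1, higher in matUPD18, came within rounding of that threshold. Over all 18193 genes, 1.17% passed 2-fold towards patUPD18, 1.74% towards matUPD18 and 2.91% in either direction. Among the 10484 measurable genes these shares were 1.78%, 2.70% and 4.48%. A single gene of 10 is too small a count to set apart from such a background. By their brightest probe sets 7 of the 10 genes read higher in patUPD18, 2 read higher in matUPD18 (Dll1 and Dll3) and 1 (Pax1) lay under the floor on both arrays. The 7 include Notch1, whose probe sets disagree in direction, and Uncx, which was not measurable. With the median over all probe sets of a gene, 6 read higher in patUPD18 and 3 in matUPD18. The median log2 ratio of the 10 genes, with Pax1 set to 0, was -0.32, against 0.00 over all genes. The range was from -1.43 (Hes7) to the value of Dll1 below. Of the 8 measurable genes 6 read higher in patUPD18 and 2 in matUPD18. The median of these 8 was -0.38, against -0.04 over all measurable genes. With loess scaling 5 of the 10 genes read higher in patUPD18 and 4 in matUPD18, and the median of the 10 was -0.13. It was -0.17 over all probe sets of a gene and -0.20 with signals floored at the 60th percentile.

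**Figure D2:**
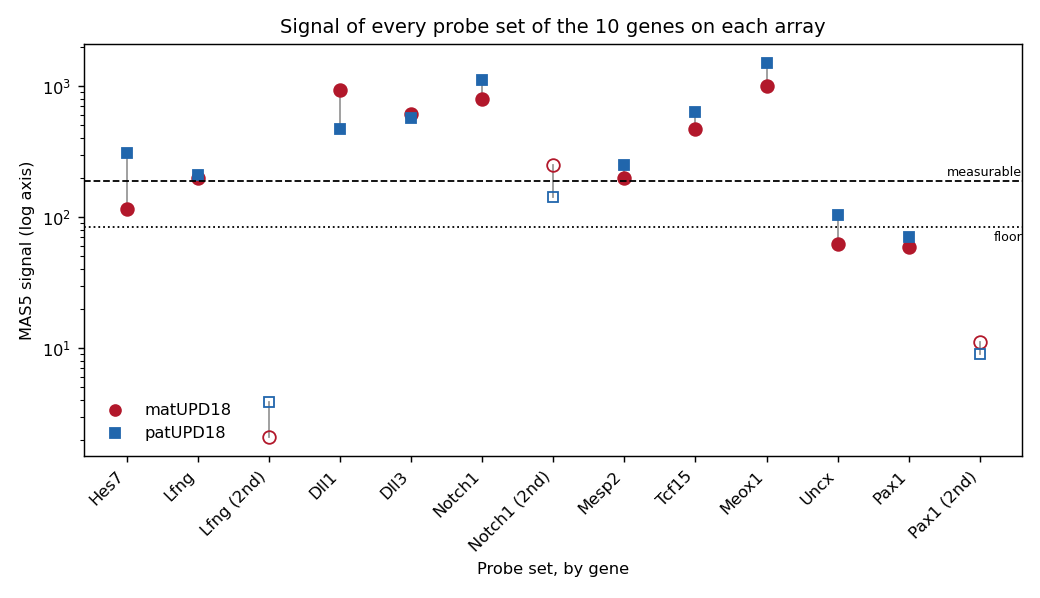
MAS5 signal (log axis) of all 13 probe sets of the 10 segmentation genes, in matUPD18 (red circles) and patUPD18 (blue squares), 1 array each; open symbols are second probe sets of a gene, and the lines mark the floor and the measurable limit, each drawn at the mean of the limits of the arrays. Hes7 (115.1 and 310.5) and Dll1 (939.6 and 471.1) are the most widely separated filled pairs, and they lie in opposite order.

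Hes7, the repressor at the core of the clock, read 115.1 in matUPD18 and 310.5 in patUPD18. It was thus 2.70-fold higher in patUPD18, a log2 ratio of -1.43 that stands on a single probe set. The matUPD18 signal was under the measurable limit of its array but above the floor. Among the 524 measurable genes of like mean signal (182.0 to 210.0), the ratio was the 11th largest in size, and 28 of them (5.34%) were at least 2-fold apart. Over all 10484 measurable genes it ranked 131st. Hes7 entered both pools through its patUPD18 signal alone. These ranks therefore give its place and are no support for the difference. Hes7 stayed lower in matUPD18 under the 4 other scalings tried. A lower floor, no floor or another probe set rule could not alter its value, since both signals of its 1 probe set lay above the floor. The difference fell under 2-fold with the floor at the 60th percentile (log2 ratio -0.71) and with the arrays aligned on their hybridisation controls (-0.87).

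Lfng, which adds sugars to Notch receptors and is itself a cycling target, gave no comparable difference. The brighter of its probe sets gave 197.9 in matUPD18 and 208.2 in patUPD18, a log2 ratio of -0.07, whose sign turned under loess scaling and under alignment on the controls. The signals lay just above the measurable limit. The other Lfng probe set, annotated to the same transcript, read 2.08 and 3.87, near the bottom of both arrays, so its ratio was not read.

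The Notch ligands of the paraxial mesoderm read differently from each other. Dll1, the ligand that activates Notch in neighbouring cells, read 939.6 in matUPD18 and 471.1 in patUPD18. Both signals were well above the measurable limit, and Dll1 was 1.99-fold higher in matUPD18. Among 524 genes of like signal (601.2 to 710.7) the ratio was the 14th largest in size, and 13 of these genes (2.48%) were at least 2-fold apart. The floors and probe set rules tried could not alter the value of Dll1. Its direction was the same under the 4 other scalings, with log2 ratios from 0.95 to 1.56, the highest with the arrays aligned on the controls. Dll1 passed 2-fold with that alignment and with loess scaling. Dll3, a divergent ligand that acts inside the cell and dampens Notch signalling, read 616.8 and 574.0, a log2 ratio of 0.10. Dll3 also kept its direction under these scalings, but in its own signal range 80.3% of genes had ratios at least as large. Each ligand was read by 1 probe set.

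Notch1, the main Notch receptor of the presomitic mesoderm, had a pair of measurable probe sets that pointed in opposite directions. The brighter read 793.0 in matUPD18 and 1121 in patUPD18, a log2 ratio of -0.50. The dimmer read 251.4 and 143.4, a log2 ratio of 0.81. Opposite signs were common on these arrays, occurring in 40.6% of the 2567 genes with a pair of measurable probe sets. A gap as wide as that of Notch1 (1.31) was less so and was found in 4.95% of them. No direction is therefore given for Notch1. Both probe sets are annotated to the same RefSeq transcript, and their positions along it are not stated in the annotation. The RNA, per the labels' protocols, was amplified before labelling, and the control probe set at the 3' end of Gapdh read 34.0 times that at the 5' end in matUPD18 and 36.4 times in patUPD18. The part of probe position in the Notch1 values was not tested.

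**Figure D3:**
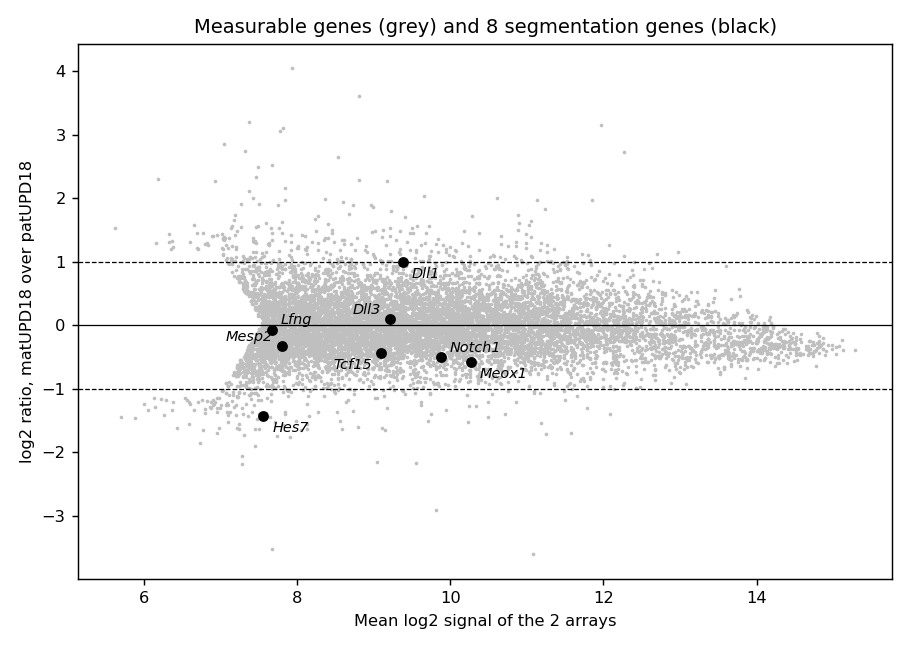
Log2 ratio (matUPD18 over patUPD18, low signals raised to the floor) against the mean log2 signal of the arrays for 10484 measurable genes, with the 8 measurable segmentation genes in black; dashed lines mark 2-fold. Only Hes7 lies beyond a dashed line, and Dll1 lies on the upper one; dim genes scatter more widely than bright ones.

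Downstream of the clock, differences were small and, under the deposited scaling, in one direction. Mesp2, the basic helix-loop-helix factor that places the segment boundary and the front-to-back polarity of each somite, read 199.2 in matUPD18 and 250.9 in patUPD18, a log2 ratio of -0.33. Tcf15 (paraxis), which is needed for somites to become epithelial, read 471.7 and 634.3, a log2 ratio of -0.43. Meox1, a homeobox factor of somites and sclerotome, read 1008 and 1507, a log2 ratio of -0.58. All 3 were higher in patUPD18 by less than 2-fold, at 1.26-fold, 1.34-fold and 1.5-fold. In their own signal ranges, 44.5%, 30.2% and 16.4% of measurable genes had ratios at least as large. With the arrays aligned on the hybridisation controls Mesp2 and Tcf15 read higher in matUPD18 instead, and Meox1 was level (-0.02).

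The remaining genes, of the later somite compartments, were close to the lower limit of the arrays. Uncx, a homeobox factor of the posterior part of each somite, read 62.03 in matUPD18, under the floor, and 103.7 in patUPD18. It was at least 1.23-fold higher in patUPD18, but it was not measurable and the direction turned under loess scaling and under alignment on the controls. Pax1, a paired-box factor of the sclerotome, read 58.66 and 70.66 by one probe set and 11.03 and 8.99 by the other, all under the floor. No ratio was read for it, and a level this low on an array does not show that the gene is silent.

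**Figure D4:**
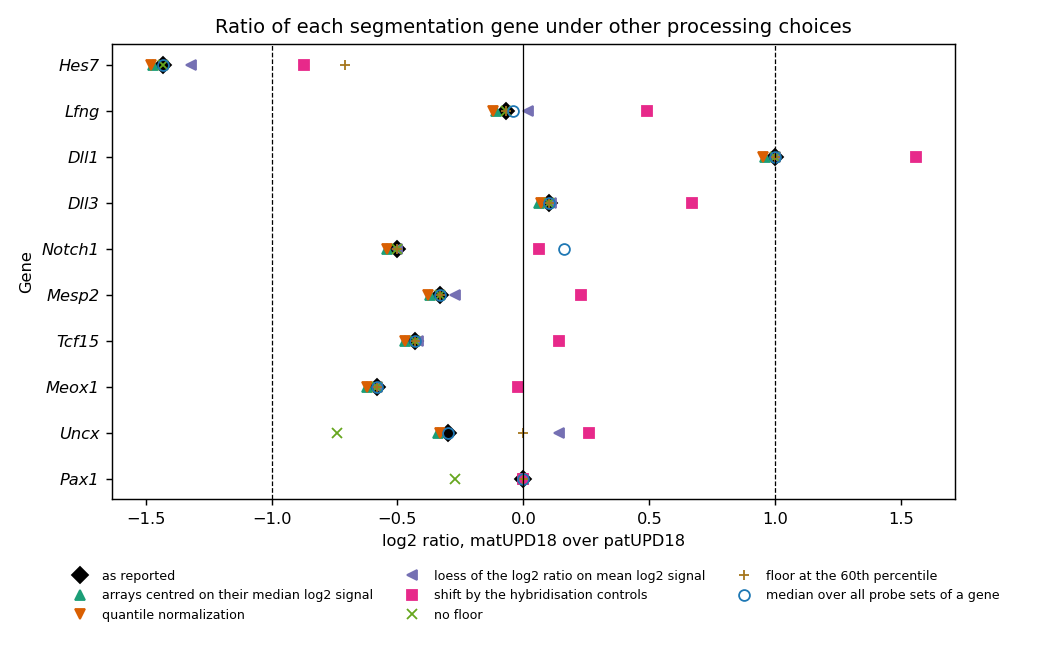
Log2 ratio of each of the 10 segmentation genes as reported (black diamonds) and under 7 of the other processing choices; dashed lines mark 2-fold. Hes7 stays below 0 and Dll1 and Dll3 above it in every setting, and the alignment on hybridisation controls (pink squares) moves the measurable genes to the right.

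The alignment on controls needs a word on scale. All 18 probe sets for the bacterial and phage transcripts used as hybridisation controls read higher on the patUPD18 array, with a median log2 ratio of -0.56. Setting these equal moved the median of all measurable genes from -0.04 to 0.52 and left 7 of the segmentation genes higher in matUPD18. In the next counts Notch1 is read by its brightest probe set, although its probe sets disagree. Relative to the median of measurable genes, 7 of the 10 lay below and 3 above with the deposited scaling, and 5 and 5 with loess. They were 8 and 2 with the alignment on controls, where Pax1, set to 0 for want of a reading, is counted below. Directions here are thus relative to the bulk of transcripts on each array.

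The wider Notch pathway, apart from the members, showed no 2-fold difference. None of its 30 genes with a probe set, of which 27 were measurable, was at least 2-fold apart, 13 read higher in matUPD18 and 16 in patUPD18, and the median log2 ratio was -0.04. The share of all genes at least 2-fold apart in either direction was 2.91%. Jag1, a ligand of another class, came nearest, with 617.0 in matUPD18 and 311.0 in patUPD18 (log2 ratio 0.99); it was chosen after its values were seen. Dtx2, a Deltex family regulator of Notch, was nearest to equal, at 3257 and 3316 (log2 ratio -0.03). Mib1, the ubiquitin ligase that Delta ligands need to signal and the only gene of the list on chromosome 18, read 2112 and 1952 by its brightest probe set, a log2 ratio of 0.11. Its other probe sets had log2 ratios of 0.99 and -0.36. Mib1 too was chosen after its values were seen. The lists below also hold genes on chromosome 18. Spry4, a clock-linked target, was not measurable (183.8 and 137.2), and Cdx1 of the presomitic list was under the floor on both arrays. Cdh2 of the somite list read 3366 and 2873 (log2 ratio 0.23), with 0.48 by its other measurable probe set. These genes were named for their chromosome after their values were seen.

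Among 19 oscillating or clock-linked target genes of the Notch, Wnt and FGF pathways, 1 passed the 2-fold threshold, towards patUPD18, as did 1.17% of all genes. This was Hes5, a Notch target of neural progenitors and one of the neural tube markers above. It read 2199 in matUPD18 and 4777 in patUPD18, a log2 ratio of -1.12. Its other probe set had a log2 ratio of -0.90, so the count fell to 0 when probe sets that may match several transcripts were left out. Of this list 8 genes read higher in matUPD18 and 11 in patUPD18, with a median of -0.04. Hes1, the Hes gene most widely used by Notch, read 401.1 and 207.5 (log2 ratio 0.95), and was chosen after its values were seen. Tnfrsf19, a Wnt target, was nearest to equal at 737.0 and 754.6.

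The genes of the presomitic mesoderm, where the clock runs, were often too dim to read. Of 15 with a probe set 7 were measurable, and 5 were under the floor on both arrays. Of the 15, 3 passed 2-fold towards patUPD18 and none towards matUPD18, against 1.17% and 1.74% of all genes. Cdx2, a caudal homeobox factor of the posterior growth zone, read 217.9 in matUPD18 and 681.2 in patUPD18 (log2 ratio -1.64). Fgf4, a growth factor of the tail end, read 62.03 and 256.1 by its brightest probe set, a difference of at least 3.04-fold. Msgn1, a presomitic basic helix-loop-helix factor, read 66.83 and 207.5, a difference of at least 2.47-fold. All 3, like Hes7, were measurable in patUPD18, and Fgf4 and Msgn1 were under the floor in matUPD18. Fgfr1, the FGF receptor of this tissue, was nearest to equal, with 372.5 and 384.8 (log2 ratio -0.05), while a second measurable probe set pointed the opposite way. Over all 15 genes 5 read higher in matUPD18 and 5 in patUPD18. Of the 7 measurable genes 5 read higher in patUPD18 and 2 in matUPD18, with a median log2 ratio of -0.30. Fgf4 and Msgn1 were measurable through patUPD18 alone and so had to read higher there. The 3 genes past 2-fold are among those 7, and the median over all 15 was 0.00, with 5 genes set to 0 because they could not be read. Raising the floor to the 60th percentile left 1 of the 15 past 2-fold towards patUPD18, as also with the median over all probe sets of a gene.

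Genes of somite patterning and of somite derivatives read higher in matUPD18 more often than in patUPD18. Of 26 with a probe set, 19 were measurable, 15 read higher in matUPD18 and 9 in patUPD18, and the median log2 ratio was 0.21. Over all genes 6520 read higher in matUPD18 and 7366 in patUPD18. The 2-fold threshold was passed by 2 genes towards matUPD18 and by none towards patUPD18, against 1.74% and 1.17% of all genes. Efnb2, an ephrin of the posterior somite compartment that is also made by arteries, read 1933 in matUPD18 and 694.1 in patUPD18 (log2 ratio 1.48), with 0.76 by its other measurable probe set. Eya1, a transcriptional co-activator of muscle precursors and sensory placodes, read 1202 and 440.3 (log2 ratio 1.45), with 0.41 by the other. Sim1, a factor of the lateral somite, was nearest to equal at 215.8 and 218.9. Meox1 and Tcf15, which mark the same somites, had ratios of opposite sign to the median of this list under the deposited scaling. With the median over all probe sets of a gene, 0 of the 26 passed 2-fold towards matUPD18. The median stayed above 0 under every scaling tried and was 0 when signals were floored at the 60th percentile.

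**Figure D5:**
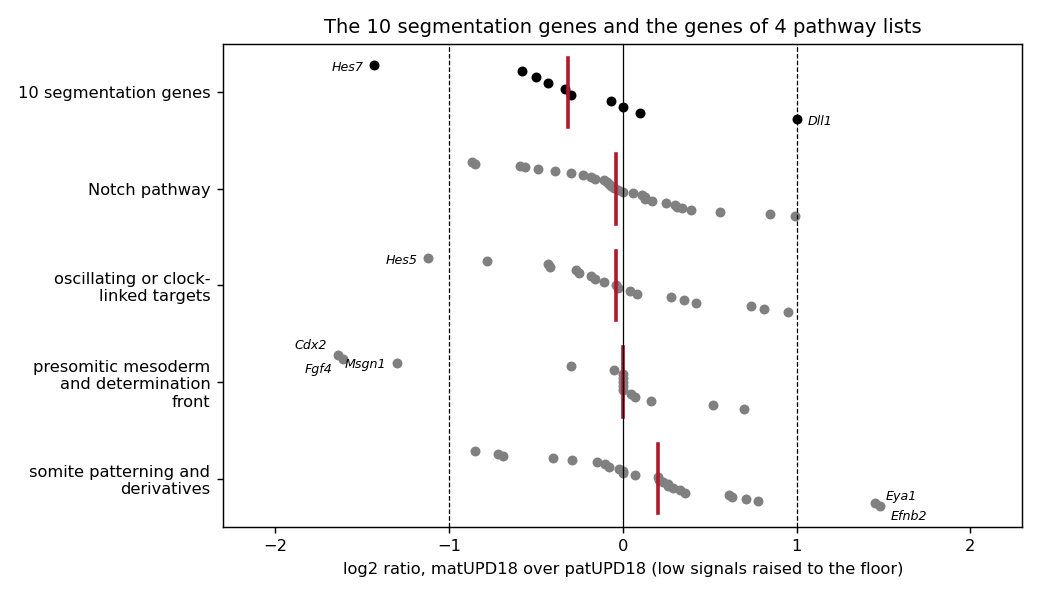
Log2 ratio (matUPD18 over patUPD18, low signals raised to the floor) of the 10 segmentation genes and of the genes of 4 pathway lists, sorted within each row; red bars are medians, dashed lines mark 2-fold, and genes beyond 2-fold, with Dll1, are named. The medians of the rows are -0.32, -0.04, -0.04, 0.00 and 0.21.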

How the data were processed

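RNA from whole embryos was measured on 2 arrays, 1 for matUPD18 and 1 for patUPD18. The deposited values are MAS5 signal intensities made by the authors with MAS5 and GCOS, per the submitters' processing notes; no version is stated there, and no detection calls were used. Each array had been scaled to the same 2% trimmed mean (500.0). Symbols were updated through Entrez identifiers in the RefSeq gene table (GRCm38.p6), which matched 34741 of the 34945 probe sets with 1 symbol. That table gave chromosomes, and the RefSeq promoter table of the same build gave the sequences; the build behind the array's annotation is not stated in it. The 60th percentile limit, the 40th percentile floor, the probe set rule and the 2-fold threshold follow an earlier analysis of these arrays. Genes of like signal are those in the same twentieth of measurable genes by mean log2 signal. The members and lists were chosen with earlier results of these data known. Named were the 10 genes and the measurable list genes at least 2-fold apart (at most 6 per list). The measurable list gene nearest to a log2 ratio of 0 and the brightest gene of each marker list were also named. Jag1, Hes1, Mib1, Spry4, Cdx1, Cdh2, Tbx6 and the Gapdh controls were added after their values were seen. Of the 97 listed pathway genes, 90 had a probe set with 1 symbol; the others were not analysed here. The procedure was run on simulated data, which checks the calculation only. The simulation held no differences between embryos or arrays, and its noise was smaller than the disagreement between real probe sets. Python 3.11.15, pandas 2.3.3, numpy 2.4.6, statsmodels 0.14.6 and matplotlib 3.10.9 were used.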

Additional observations from a re-analysis of the deposited data

How the results depend on the processing

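The alternatives were 4 other scalings, 3 other floors, 2 other probe set rules and, for the counts of segmentation genes, thresholds of 1.5-fold and 3-fold. A value was taken as moved where a log2 ratio shifted by 0.44 or more, or a count by more than 1.5 times. Of 139 comparisons of counts and medians 119 did not move. This says little about stability, since many were counts of 0 that stayed 0 and the 0.44 limit, taken from single probe sets, is wide for a median. The Notch pathway median went from -0.04 to 0.04 under loess scaling without being taken as moved. Of 90 comparisons of single segmentation genes 14 moved. Neither Hes7 nor Dll1 changed sign in its 9 settings, but some of these settings could not change their values. With the arrays aligned on the hybridisation controls, the segmentation genes at least 2-fold apart became 1 in matUPD18 (Dll1) and 0 in patUPD18, and their median became 0.18. That alignment also raised the medians to 0.50 (Notch pathway), 0.53 (clock-linked targets) and 0.77 (somite patterning). It gave 3, 3, 2 and 6 genes at least 2-fold higher in matUPD18 in the Notch, clock-linked, presomitic and somite lists, and 0 clock-linked targets higher in patUPD18. It changed the 2-fold counts of all measurable genes from 283 and 187 to 1639 (15.6%) in matUPD18 and 29 (0.277%) in patUPD18. Loess scaling and the 1.5-fold threshold each gave 1 segmentation gene higher in matUPD18, and the floor at the 60th percentile and the 3-fold threshold each gave 0 in patUPD18. Of all measurable genes, 9.97% passed 1.5-fold towards matUPD18 and 8.74% towards patUPD18. The shares past 3-fold were 0.458% and 0.267%. Loess left 357 and 118 genes of all measurable ones at least 2-fold higher in matUPD18 and patUPD18, and the floor at the 60th percentile left 189 and 78. The presomitic count in patUPD18 was 1 with that floor and 1 with the median over all probe sets, the latter also giving 0 somite genes higher in matUPD18. Without a floor 1 somite gene was higher in patUPD18, and without _x_at and _s_at probe sets 0 clock-linked targets were. No paired analysis was possible because each genotype had 1 array. Dim signals limit what could be read of Hes7, Lfng, Mesp2, Uncx, Pax1 and most presomitic genes.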
